A study of Mus musculus with 12 samples.

Results

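The EGF family ligands and the ERBB receptors were followed in bulk RNA-seq of mouse back skin. The 10 genes were taken from a list of names and by no threshold on their values, though the list was drawn up with earlier results of these data known: the ligands Areg, Ereg, Hbegf, Tgfa, Btc, Epgn and Nrg1, and the receptors Egfr, Erbb2 and Erbb3. They are 10 of 56923 genes in the count table, and all 10 passed the filter on low counts that left 18529 genes for testing. The 12 libraries came from female mice aged 8 to 10 weeks, with 3 mice in each of 4 groups. WT control and WT IMQ mice were compared with control and IMQ mice labelled Lcn2-/-, which per the study were C57BL/6 animals with WT littermates. IMQ mice had 5% imiquimod cream, a TLR7 agonist that gives a psoriasis-like dermatitis, on the shaved back for 6 days, and control mice had a vehicle cream. The sample labels call the Lcn2-/- genotype a knockdown and the control treatment none.

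EGF family ligands are made as membrane-bound precursors that are cut by ADAM proteases and then bind receptors on the same or nearby cells. Areg (amphiregulin), Tgfa (transforming growth factor alpha) and Epgn (epigen) bind the EGF receptor, Ereg (epiregulin), Hbegf (heparin-binding EGF-like growth factor) and Btc (betacellulin) bind it and ERBB4, and Nrg1 (neuregulin 1) binds ERBB3 and ERBB4. ERBB2 has no known ligand of its own and pairs with the other receptors, and ERBB3 signals mainly through such pairs because its own kinase is weak. In epidermis the EGF receptor and its ligands are known for autocrine control of keratinocyte growth, migration and wound repair, with the RAS and ERK cascade downstream.

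Library totals lay between 16448226 and 28592110 counts, so that the floor of 3 counts corresponded to 0.0984 to 0.201 CPM (counts scaled to a common library size by TMM), a limit of counting error only. Lcn2 itself was counted in every library. It was at 136, 201 and 86 counts in WT control, 320, 173 and 357 in control labelled Lcn2-/-, 1010, 2723 and 1572 in WT IMQ and 561, 511 and 830 in IMQ labelled Lcn2-/-. The controls labelled Lcn2-/- thus held no less Lcn2 than the WT controls, at 11.9 ± 3.56 against 6.49 ± 2.04 CPM (SD, n = 3), and the genotype is given here as labelled. The IMQ mice labelled Lcn2-/- were below the WT IMQ mice in Lcn2, at 37.9 ± 10.4 against 107 ± 66.4 CPM (SD, n = 3; adjusted p = 0.0525). Which part of the gene was deleted is not given in the sources used here, so whether these counts can check the label was not tested. The 12 keratinocyte markers summed to 6428 CPM or more in every library, while 6 retina markers, looked at because a protocol text in the labels speaks of retinas, summed to at most 2.90 CPM. The 6 hair follicle markers varied widely among controls, from 3.48 to 2213 CPM in WT control and from 116 to 6840 CPM in control labelled Lcn2-/-.

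In WT skin, 6 of the 7 ligands rose after IMQ and 1 fell, while no receptor passed the test. The share of all tested genes called at an adjusted p under 0.05 (edgeR's quasi-likelihood test, Benjamini-Hochberg adjustment over 18529 genes) was 14.2% higher and 14.3% lower in WT IMQ against WT control. The median log2 fold change was 3.71 over the 7 ligands and -0.02 over the 3 receptors, beside -0.02 over all genes tested. In bulk skin, fewer cells of a type and less RNA per cell cannot be told apart.

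Areg was at 5.45, 3.26 and 4.73 CPM in the WT controls and at 53.2, 57.3 and 65.1 CPM in WT IMQ. The lowest IMQ mouse thus stood far above the highest control, and the log2 fold change was 3.71 ± 0.24 (SE, adjusted p = 2.07e-06). Epgn was at 7.75, 12.4 and 5.79 CPM in the controls and at 228, 226 and 218 CPM in WT IMQ. The 3 IMQ mice lay close together, and Epgn rose by 4.69 ± 0.29 on the log2 scale (SE, adjusted p = 2.02e-06). Hbegf was at 7.52, 8.07 and 8.97 CPM in the controls and at 155, 126 and 128 CPM after IMQ. Both groups were tight, and the log2 fold change was 4.06 ± 0.25 (SE, adjusted p = 1.6e-06).

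Ereg, which is read from the same stretch of chromosome 5 as Areg and Epgn, was at 27.4, 19.9 and 22.3 CPM in the controls and at 198, 161 and 113 CPM in WT IMQ. The groups did not overlap, although the IMQ mice spread more than for Areg, and the log2 fold change was 2.76 ± 0.29 (SE, adjusted p = 5.52e-05). Tgfa was at 18.7, 15.7 and 21.6 CPM in the controls and at 117, 96.7 and 96.4 CPM after IMQ. It rose by 2.47 ± 0.26 on the log2 scale (SE, adjusted p = 6.51e-05), the smallest of the 6 rises.

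Nrg1, a ligand of ERBB3, was barely counted in WT control skin, with 13, 19 and 5 counts in the 3 WT control libraries, or 0.600, 0.816 and 0.265 CPM. In WT IMQ it was at 24.7, 21.6 and 22.6 CPM. The log2 fold change of 5.32 ± 0.54 (SE, adjusted p = 4.52e-05) was the largest of the 10 members and rests on those few control counts.

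Btc moved the other way. It was at 12.6, 18.8 and 16.8 CPM in the WT controls and at 5.93, 9.93 and 4.35 CPM in WT IMQ, with every IMQ mouse below every control. The log2 fold change was -1.26 ± 0.37 (SE, adjusted p = 0.0248). The fall kept its sign in 6 of 6 fits that left out 1 mouse, from -1.65 to -1.02, but passed the threshold in 2 of them, and was lost without WT control mouse 2 or 3 or without WT IMQ mouse 1 or 3 (adjusted p from 0.00923 to 0.0959 over the 6 fits).

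**Figure D1:**
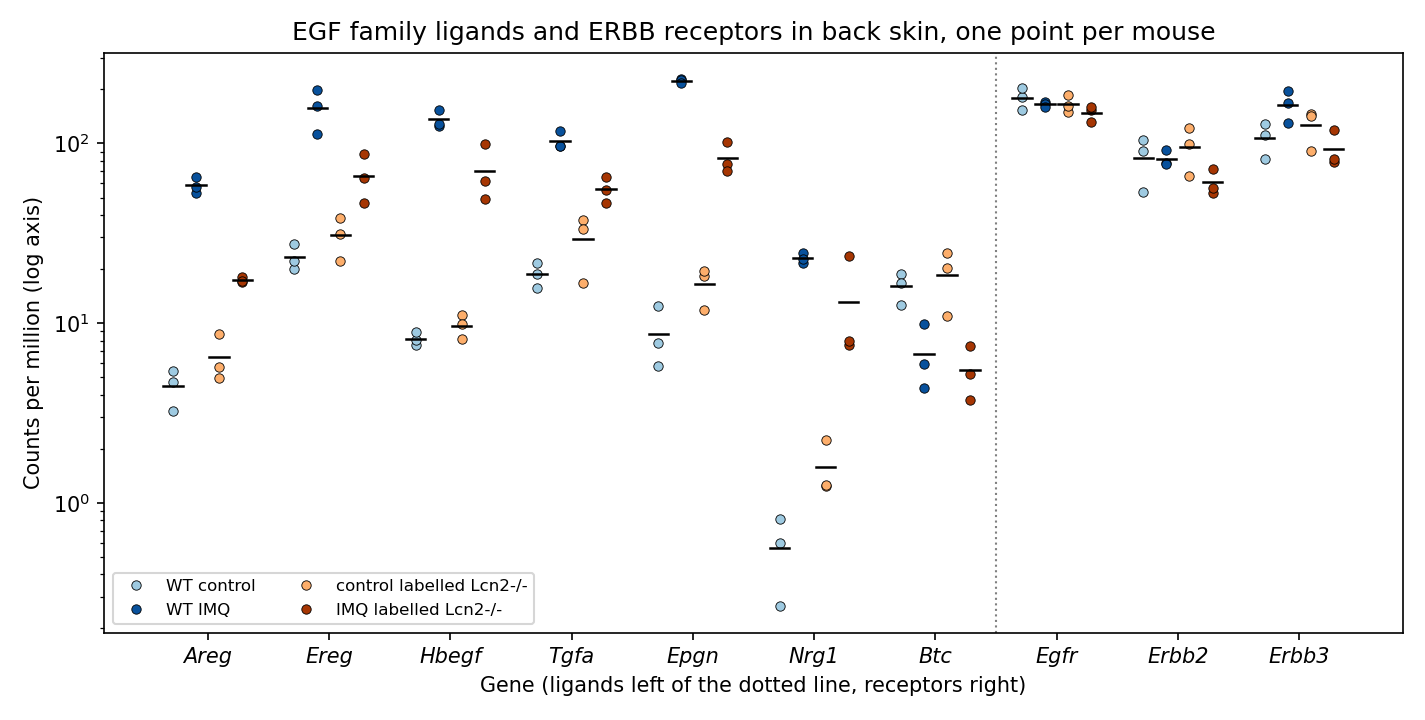
CPM (log axis) of the 7 ligands and 3 receptors, with 1 point for each of the 12 mice and a bar at each group mean. The dark blue WT IMQ points lie above the light blue WT control points for 6 ligands and below them for Btc, while Egfr stays between 132 and 204 CPM in all 4 groups.

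None of the receptor genes passed the test in WT skin. Egfr was at 181, 204 and 153 CPM in the controls and at 171, 166 and 160 CPM in WT IMQ, so that all IMQ mice fell within the range of the controls (log2 fold change -0.12, adjusted p = 0.537). Erbb2 was at 91.2, 53.9 and 105 CPM in the controls and at 92.0, 77.7 and 76.9 CPM after IMQ, again within the control range (log2 fold change -0.02, adjusted p = 0.966). Erbb3 was at 112, 81.5 and 129 CPM in the controls and at 197, 130 and 167 CPM after IMQ. The 2 groups of Erbb3 values only just did not overlap, and the log2 fold change of 0.62 missed the threshold (adjusted p = 0.0778).

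Of the ligand genes, 4 lie next to each other on chromosome 5. In the GENCODE M21 annotation of GRCm38, Epgn spans 91027464 to 91035215, Ereg 91074622 to 91093646 and Areg 91139599 to 91148432, all on the plus strand, and Btc spans 91357261 to 91402994 on the minus strand. The region from Epgn to Btc is 375531 bases long and holds 6 annotated genes, of which the 4 ligands are the protein-coding ones. The neighbours thus moved in opposite directions after IMQ: Epgn, Ereg and Areg rose and Btc fell. Gm19610, an antisense gene on the minus strand that overlaps the start of Ereg, had a log2 fold change of 1.77 (adjusted p = 0.0248) on 265 counts over all libraries. Whether the counting used strand is not given in the sources used here, so its reads and those of Ereg cannot be told apart where they overlap. The sixth gene, Gm19619, had too few counts to be tested.

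Promoter sequences are shown for Areg and Epgn, which rose, and for Btc, which fell, because these neighbours differ in direction. RefSeq promoter entries (GRCm38.p6) were found for 6 of the 10 members: Epgn, Areg, Btc, Tgfa, Egfr and Erbb2. Each sequence ends at the base before the annotated start and is written 5′ to 3′ on the strand of its gene, and capitals mark TATAAA and TGACGTCA. For Epgn the annotations differ, with a GENCODE start at 91027464 and a RefSeq start downstream at 91027517, and the sequence ends before the GENCODE start.
Areg, chr5:91139349-91139598, plus strand: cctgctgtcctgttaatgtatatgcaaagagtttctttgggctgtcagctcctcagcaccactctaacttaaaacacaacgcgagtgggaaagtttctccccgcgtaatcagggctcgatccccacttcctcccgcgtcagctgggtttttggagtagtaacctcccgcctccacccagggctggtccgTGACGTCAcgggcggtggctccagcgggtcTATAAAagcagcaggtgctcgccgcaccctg
Epgn, chr5:91027267-91027463, plus strand: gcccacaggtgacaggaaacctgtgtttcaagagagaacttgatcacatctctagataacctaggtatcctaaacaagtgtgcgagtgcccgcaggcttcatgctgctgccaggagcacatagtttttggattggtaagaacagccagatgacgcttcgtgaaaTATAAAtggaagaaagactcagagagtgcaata
Btc, chr5:91402995-91403244, minus strand: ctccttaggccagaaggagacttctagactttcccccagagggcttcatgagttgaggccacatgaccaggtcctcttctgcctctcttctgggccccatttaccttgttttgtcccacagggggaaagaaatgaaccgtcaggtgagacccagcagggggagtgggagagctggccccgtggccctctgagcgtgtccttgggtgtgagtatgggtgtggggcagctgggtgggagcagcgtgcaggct
The 6 letters of a TATA box, TATAAA, begin at position -31 in Areg and at -33 in Epgn, counted back from -1 at the base before the start, and are not in the Btc sequence shown. The position in Epgn holds for the GENCODE start only, and the same letters lie further from its RefSeq start. Areg also holds the cyclic AMP response element TGACGTCA from -61, a motif searched for after the sequence had been seen. Over windows of 300 bases, from 250 before to 50 after the RefSeq start, TATAAA was found on either strand in 13.6% of 32851 promoters, TGACGTCA in 1.79% and the AP-1 motif TGANTCA in 7.81%. Of the 6 members, 2 held TATAAA, 1 held TGACGTCA and 0 held TGANTCA. Tgfa, which also rose after IMQ, held no TATAAA, and neither did Btc, Egfr or Erbb2. Whether the motif goes with the direction of change was not tested. These motifs do not overlap in the sequences shown, and a match is a description of letters only.

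Among mice labelled Lcn2-/-, the same 6 ligands were called higher after IMQ and Btc was called lower, beside 14.1% of all tested genes called higher and 11.2% called lower. The median log2 fold change was 1.44 over the 7 ligands and -0.43 over the 3 receptors, beside -0.05 over all genes tested. Hbegf went from 11.1, 9.85 and 8.16 CPM in the controls to 49.4, 62.2 and 98.9 CPM in the IMQ mice, a rise of 2.85 ± 0.23 on the log2 scale (SE, adjusted p = 2.05e-05). Epgn went from 18.3, 19.5 and 11.8 to 76.5, 101 and 69.9 CPM, a rise of 2.32 ± 0.26 on the log2 scale (SE, adjusted p = 0.00019). In both genes the lowest IMQ mouse stood clear of the highest control.

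Areg was at 5.71, 8.73 and 4.95 CPM in the controls labelled Lcn2-/- and at 18.2, 17.1 and 17.1 CPM in the IMQ mice, which were nearly equal (log2 fold change 1.44 ± 0.22, SE, adjusted p = 0.00116). Nrg1 was at 1.25, 2.24 and 1.25 CPM in the controls and at 7.56, 7.94 and 23.7 CPM after IMQ. IMQ mouse 3 was well above the other two and within the range of the WT IMQ mice, and the log2 fold change was 3.06 ± 0.47 (SE, adjusted p = 0.00122), or 2.31 without that mouse.

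Ereg and Tgfa had the smallest rises in mice labelled Lcn2-/-. Ereg was at 38.7, 22.3 and 31.4 CPM in the controls and at 64.0, 87.9 and 46.5 CPM after IMQ (log2 fold change 1.10 ± 0.27, SE, adjusted p = 0.014). The call on Ereg was lost without IMQ mouse 2 (adjusted p from 0.0122 to 0.0591 over 6 fits). Tgfa was at 16.7, 37.5 and 33.5 CPM in the controls and at 55.2, 46.5 and 64.8 CPM after IMQ (log2 fold change 0.93 ± 0.25, SE, adjusted p = 0.0209). The call on Tgfa was lost without IMQ mouse 1 or 3 (adjusted p from 0.0151 to 0.0801 over 6 fits).

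Btc fell in mice labelled Lcn2-/- as well, from 20.3, 10.96 and 24.5 CPM in the controls to 7.50, 5.20 and 3.71 CPM after IMQ, with no overlap. The log2 fold change was -1.77 ± 0.38 (SE, adjusted p = 0.00629), and it passed the threshold in 6 of 6 fits that left out 1 mouse. Of the receptors, Egfr was at 150, 187 and 163 CPM and then at 132, 154 and 159 CPM (adjusted p = 0.377). Erbb2 was at 66.2, 122 and 99.7 CPM and then at 72.4, 53.0 and 56.8 CPM (adjusted p = 0.0807), and Erbb3 at 90.4, 146 and 142 CPM and then at 120, 78.6 and 82.5 CPM (adjusted p = 0.214). The controls and IMQ mice overlapped for all 3 receptors. Without control mouse 1, the lowest of the 3 controls for Erbb2, the adjusted p of Erbb2 was 0.0265 (from 0.0265 to 0.265 over 6 fits).

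**Figure D2:**
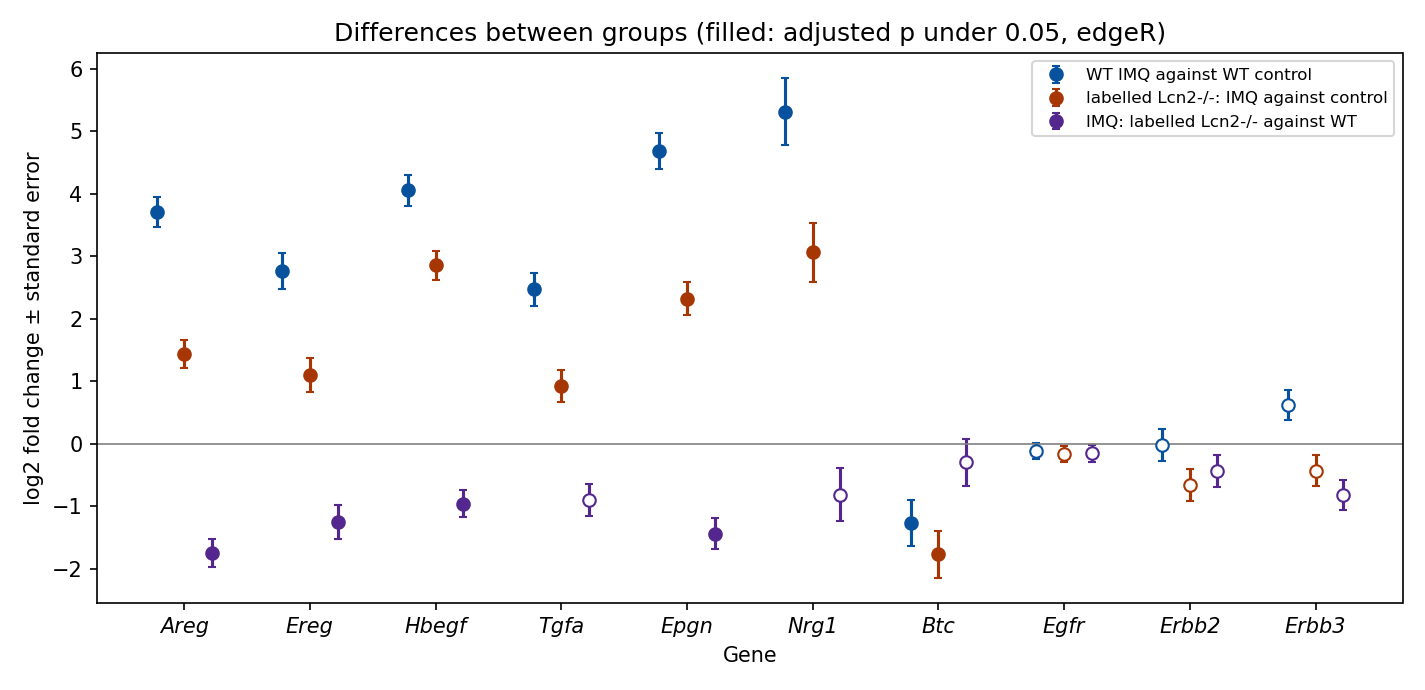
log2 fold changes with standard errors for the 10 genes in 3 comparisons, with filled points at an adjusted p under 0.05. The blue WT responses to IMQ lie above the brown responses of mice labelled Lcn2-/- for the 6 ligands that rose, and the purple points, which compare the 2 IMQ groups directly, lie below 0 for all 10 genes.

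Between the IMQ groups, 4 ligands were lower in mice labelled Lcn2-/- than in WT, and 0 members were higher, with 0 higher also by DESeq2 and at a p under 0.05 before adjustment, where 6 were lower beside 14.5% of all tested genes lower and 12.5% higher. The log2 fold change, with its SE, was -1.75 ± 0.22 in Areg (adjusted p = 0.0215), -1.44 ± 0.25 in Epgn (adjusted p = 0.0222), -1.25 ± 0.27 in Ereg (adjusted p = 0.0352) and -0.96 ± 0.22 in Hbegf (adjusted p = 0.0365). Over all tested genes, 2.6% were called lower and 2.19% higher in this comparison. In each of the 4 genes every mouse labelled Lcn2-/- was below every WT mouse, for example at 18.2 CPM or less against 53.2 CPM or more for Areg and at 101 CPM or less against 218 CPM or more for Epgn. Tgfa did not overlap either, at 64.8 CPM or less against 96.4 CPM or more, but missed the threshold (log2 fold change -0.90, adjusted p = 0.0609). Nor did the receptors, none of which passed. Egfr was at 159.2 CPM or less against 159.7 CPM or more, Erbb2 at 72.4 against 76.9 and Erbb3 at 120 against 130. Nrg1 and Btc overlapped. The share of all tested genes without overlap was not counted, so a lack of overlap does not single out the called genes.

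The other members did not pass. Nrg1 had a log2 fold change of -0.81 (adjusted p = 0.238), with IMQ mouse 3 labelled Lcn2-/- at the WT level. Without that mouse it was -1.56 (adjusted p = 0.0644), and over the 6 fits that left out 1 mouse it ran from -1.56 to -0.53 (adjusted p from 0.0644 to 0.534). Btc was at -0.29 (adjusted p = 0.641), Egfr at -0.16 (adjusted p = 0.462), Erbb2 at -0.44 (adjusted p = 0.295) and Erbb3 at -0.82 (adjusted p = 0.0705). All 10 members had a log2 fold change below 0, with a median of -0.86 beside -0.02 over all genes tested. DESeq2 called 6 members lower, adding Tgfa (adjusted p = 0.0147) and Erbb3 (adjusted p = 0.0207), on a background of 6.79% of genes called lower. It made more false calls than edgeR in simulated data, 39 of 222 against 7 of 171. That simulation covered WT IMQ against WT control only, so it does not give the share of false calls between the IMQ groups.

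These 4 calls depended on single mice, as did nearly every call in the comparison. Without WT IMQ mouse 1 or 3, or without any of the 3 IMQ mice labelled Lcn2-/-, no member was called, and between 0 and 4 genes of the whole table were. Without WT IMQ mouse 2, 5 members were called lower, among 2726 genes called. The sizes moved less than the calls. Over the 6 fits the log2 fold change ranged from -1.81 to -1.66 for Areg, -1.61 to -1.33 for Epgn, -1.51 to -1.05 for Ereg and -1.28 to -0.75 for Hbegf, and the p-value before adjustment was under 0.05 in 6 of 6 fits for each.

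**Figure D3:**
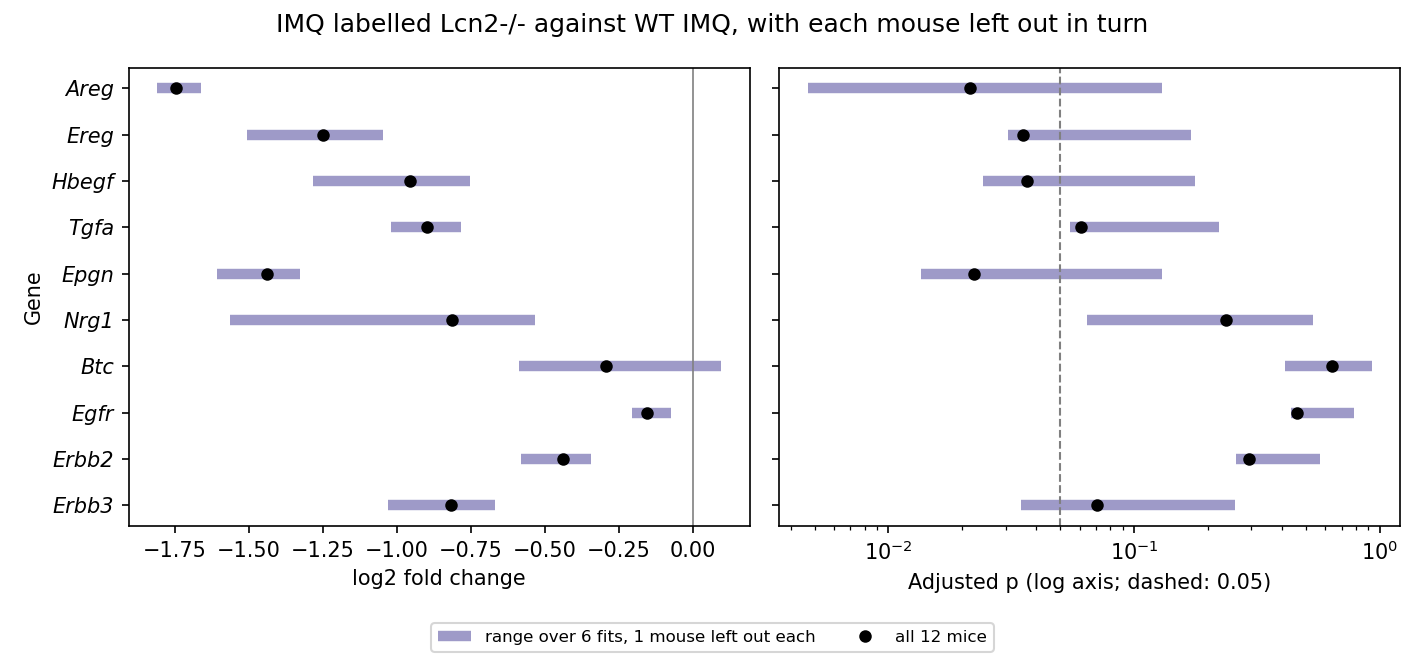
IMQ mice labelled Lcn2-/- against WT IMQ mice, with the log2 fold change on the left and the adjusted p (log axis, threshold dashed) on the right; dots show all 12 mice and bars the range over the 6 fits that each left out 1 mouse. Areg keeps a log2 fold change between -1.81 and -1.66, while its adjusted p runs from 0.00468 to 0.13.

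Markers of cell types also differed between the groups, not all in the direction of these ligands. The 12 keratinocyte markers summed to between 34876 and 46249 CPM in WT IMQ and between 20663 and 31946 CPM in IMQ labelled Lcn2-/-, and 12 of 12 had a log2 fold change below 0 between these groups (median -0.68), with Trp63 (-0.85, adjusted p = 0.0354) and Itgb4 (-0.61, adjusted p = 0.0426) called lower. After IMQ in WT, 11 of the 12 were called higher (median log2 fold change 1.27), and 7 of the 12 in mice labelled Lcn2-/- (median 0.73). The 7 fibroblast markers summed to between 10090 and 10677 CPM in WT IMQ and between 19732 and 20564 CPM in IMQ labelled Lcn2-/-, and 3 of the 7 were called higher there. After IMQ in WT, 0 of the 7 fibroblast markers were called higher and 2 lower (median log2 fold change -0.38). No marker of either list was at 0 in any group.

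Other marker lists moved as well. Between the IMQ groups, the sums of the 4 stress keratins (9308 to 19142 CPM in WT, 4903 to 8096 in mice labelled Lcn2-/-) and of the 6 proliferation genes (497 to 692 and 372 to 468) were lower without overlap. Those of the 6 Schwann cell markers (280 to 405 and 486 to 556) and the 5 adipocyte markers (1015 to 2230 and 2299 to 3303) were higher without overlap, and no single gene of these 4 lists was called. The leukocyte, melanocyte, skeletal muscle, hair follicle and sebaceous sums overlapped. After IMQ in WT, stress keratins rose from at most 1058 CPM in sum to at least 9308 (3 of 4 genes called higher), while Schwann cell, skeletal muscle and sebaceous sums went down without overlap, with 4 of 6, 4 of 6 and 5 of 6 genes called lower. In mice labelled Lcn2-/- the stress keratin, leukocyte and fibroblast sums went up without overlap (3 of 4, 6 of 7 and 5 of 7 genes called higher), and the proliferation, melanocyte, hair follicle and sebaceous sums went down without overlap (0, 5, 6 and 3 of 6 genes called lower). The part of these markers in the ligand differences was not tested.

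Between the control groups no member was called, by edgeR or by DESeq2, beside 0.0054% of tested genes called higher and 0.0054% lower, or 1 gene each way. DESeq2 called 0.301% of genes higher and 0.264% lower. Before adjustment, p was under 0.05 for 4 members higher and 0 lower by either tool, beside 2.65% of genes higher and 3.95% lower by edgeR and 1.92% and 2.27% by DESeq2. All 7 ligands had a log2 fold change above 0 in controls labelled Lcn2-/- against WT controls (median 0.53). The largest were in Nrg1 (1.44, adjusted p = 0.684), where the groups did not overlap, and Epgn (0.93, adjusted p = 0.504), where they did.

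The responses to IMQ were then compared with each other, as the log2 fold change in mice labelled Lcn2-/- minus that in WT mice. The WT response was larger in Areg, by a difference of -2.27 ± 0.32 (SE, adjusted p = 0.017), and in Epgn, by -2.36 ± 0.37 (SE, adjusted p = 0.0195). These were 2 of 10 members lower and 0 higher, beside 0.783% of all tested genes lower and 1.37% higher. At a p under 0.05 before adjustment, 7 members were lower and 0 higher, beside 11.9% and 12.2% of all tested genes. Ereg (-1.66, adjusted p = 0.0506), Tgfa (-1.54, adjusted p = 0.0506), Hbegf (-1.20, adjusted p = 0.0652) and Nrg1 (-2.25, adjusted p = 0.0913) missed the threshold. The differences for Btc (-0.50, adjusted p = 0.577), Egfr (-0.05, adjusted p = 0.899), Erbb2 (-0.64, adjusted p = 0.296) and Erbb3 (-1.05, adjusted p = 0.106) did not pass either. The comparison shares its IMQ mice with the one above and is no separate evidence. DESeq2 called 7 members, all lower, on a background of 4.71% of genes lower and 5.57% higher. In simulated data of WT IMQ against WT control, 17.6% of the DESeq2 calls were false, beside 4.09% of the edgeR calls. The share of false calls in the comparison of responses was not simulated. The fits that left out 1 mouse called 0 to 5 members, among 2 to 1927 genes called in the whole table. The count was 0 without WT IMQ mouse 1 or 3 or without IMQ mouse 2 labelled Lcn2-/-, 1 without WT control mouse 1, without control mouse 2 labelled Lcn2-/- or without IMQ mouse 1 labelled Lcn2-/-, and 3 or more without WT control mouse 3, control mouse 1 labelled Lcn2-/-, IMQ mouse 3 labelled Lcn2-/- or WT IMQ mouse 2. Over the 12 fits Areg ranged from -2.44 to -2.00 and Epgn from -2.72 to -2.15.

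Levels of different genes were set side by side as CPM per kb of annotated exon, a scale that ignores which isoform is made. In WT control skin the receptors stood above the ligands. Erbb3 was at 17.9 ± 3.98, Erbb2 at 16.0 ± 5.08 and Egfr at 15.8 ± 2.26 CPM per kb (SD, n = 3), which did not differ beyond their spread, and the lowest receptor value of 10.3 was above the highest ligand value of 6.87. Ereg, Epgn, Areg, Btc and Tgfa followed, each overlapping the next, at means from 5.62 down to 2.87 CPM per kb. Hbegf at 1.69 ± 0.15 and Nrg1 at 0.0541 ± 0.0268 CPM per kb stood apart below them.

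After IMQ the order in WT skin was different. Epgn led at 124 ± 2.90 CPM per kb (SD, n = 3), clear of every other member. Areg at 48.1 ± 4.97, Ereg at 38.1 ± 10.3, Hbegf at 28.2 ± 3.31 and Erbb3 at 27.4 ± 5.59 CPM per kb overlapped each with the next. Tgfa at 15.9 ± 1.85, Erbb2 at 15.8 ± 1.64 and Egfr at 14.6 ± 0.48 CPM per kb formed a further set of overlapping genes, and Nrg1 at 2.22 ± 0.15 and Btc at 1.49 ± 0.64 CPM per kb came last.

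In IMQ mice labelled Lcn2-/- Epgn also led, at 45.7 ± 9.20 CPM per kb (SD, n = 3). Ereg, Erbb3, Hbegf, Areg, Egfr and Erbb2 followed at means from 16.0 to 11.7 CPM per kb, each overlapping the next. Tgfa at 8.56 ± 1.41 CPM per kb stood just below Erbb2, and Nrg1 and Btc were lowest at 1.26 ± 0.89 and 1.21 ± 0.42 CPM per kb. In control skin labelled Lcn2-/- the receptors were again highest, with Erbb3 at 20.95 ± 5.15 and Epgn, the first ligand, at 9.14 ± 2.28 CPM per kb.

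**Figure D4:**
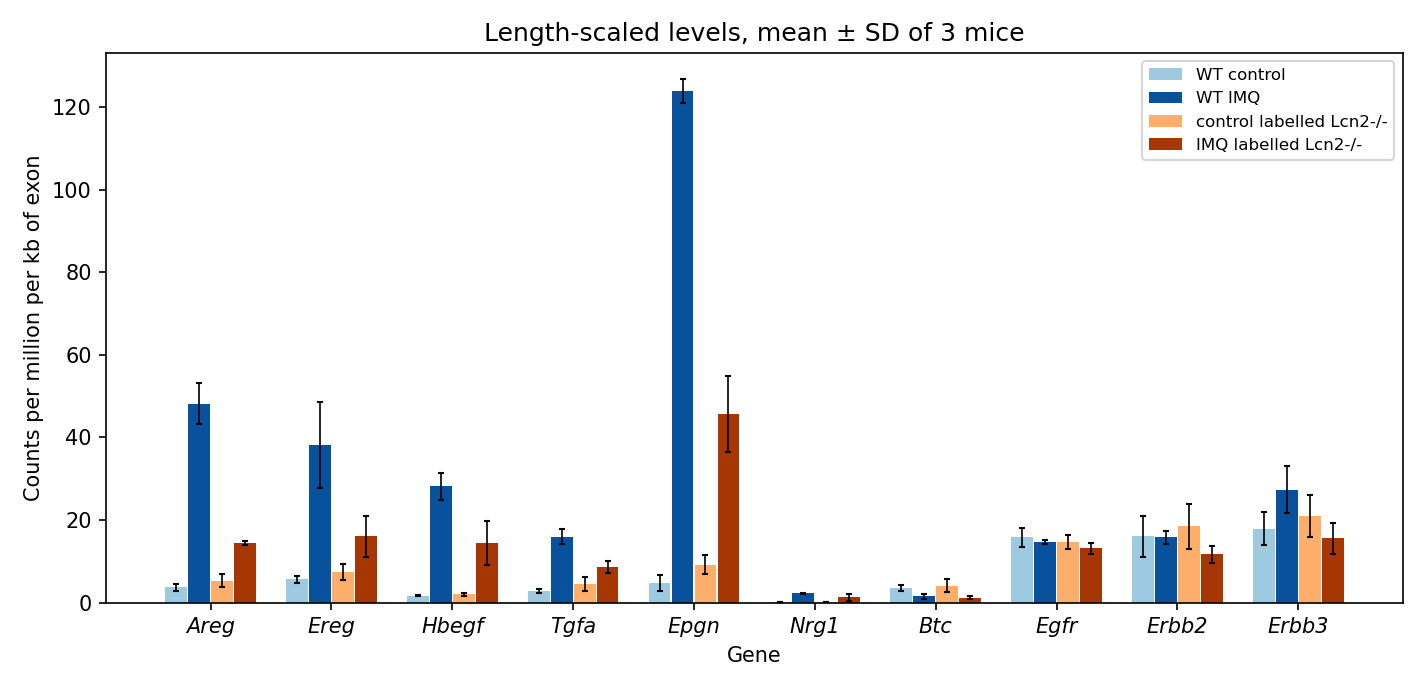
Mean CPM per kb of exon with SD (n = 3 mice) for the 10 genes in the 4 groups. In both control groups the receptor bars are the highest, and in both IMQ groups Epgn is, at 124 CPM per kb in WT and 45.7 CPM per kb in mice labelled Lcn2-/-.

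Summed over the 7 ligands, the CPM was 79.8 ± 0.79 in WT control, 709 ± 67.5 in WT IMQ, 113 ± 2.43 in control labelled Lcn2-/- and 310 ± 27.9 in IMQ labelled Lcn2-/- (SD, n = 3). The 4 groups did not overlap in this sum, though no single ligand was called between the control groups. The small SD in WT control hides opposite deviations of single ligands. WT control mouse 2, for example, was highest in Epgn and Btc and lowest in Areg and Ereg. How many other gene sets would separate the groups in this way was not counted. Summed over the 3 receptors, the CPM was 370 ± 26.7, 412 ± 43.6, 389 ± 75.5 and 303 ± 19.3 in the same order, and neither control group stood clear of the IMQ group of its genotype. The receptor sums of the IMQ groups did not overlap: 373 to 459 CPM in WT and 286 to 324 CPM in mice labelled Lcn2-/-. No receptor was called between them, and neither the ligand sum nor the receptor sum was tested.

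The rest of the pathway was read through 5 lists of 59 genes, of which 57 could be tested. The other 2, the neuregulin gene Nrg3 and the receptor gene Erbb4, were at 0.106 CPM or less and at 0.415 CPM or less in every library. In WT IMQ against WT control 14 of the 57 were called higher and 6 lower (median log2 fold change 0.23), and among mice labelled Lcn2-/- 15 and 6 were (median 0.07). Against the shares of all genes given above, 14.2% and 14.3% in WT and 14.1% and 11.2% in mice labelled Lcn2-/-, nothing is read from these counts about the pathway as a whole. Of the other ligands, 1 of 3 passed in WT: Nrg4 fell (log2 fold change -0.95, adjusted p = 0.0463) though its groups overlapped. Egf was at 11.4 ± 1.78 CPM in WT control and 8.76 ± 1.53 CPM in WT IMQ (SD, n = 3).

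Among 8 genes of ligand release, 3 rose and 0 fell after IMQ in WT. Adam8, a protease of leukocytes and other cells, rose by a log2 fold change of 1.53 (adjusted p = 0.00146), Rhbdf2, a partner that ADAM17 needs to mature, by 0.60 (adjusted p = 0.0308), and Adam17, the main sheddase of several EGF receptor ligands, by 0.49 (adjusted p = 0.00493). In mice labelled Lcn2-/- 4 rose and 0 fell: Adam8 by 1.15 (adjusted p = 0.00858), Adam9 by 0.95 (adjusted p = 0.013), Adam12 by 0.87 (adjusted p = 0.00386) and Adam10, which cuts betacellulin, by 0.52 (adjusted p = 0.00742).

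Among 17 feedback inhibitors, which limit the receptor or the ERK cascade, 3 rose and 4 fell in WT. Spred3, an inhibitor of RAS signalling, rose by a log2 fold change of 2.12 (adjusted p = 0.00151) and Dusp5, a nuclear phosphatase of ERK, by 1.40 (adjusted p = 0.000173). Dusp4, another nuclear MAP kinase phosphatase, was at -1.35 (adjusted p = 0.0165) and Lrig1, a membrane protein that promotes loss of the EGF receptor, at -0.83 (adjusted p = 0.00211). In mice labelled Lcn2-/- 2 rose and 4 fell: Dusp4 was at -1.42 (adjusted p = 0.0151), Lrig3 at -1.08 (adjusted p = 0.00139), Lrig1 at -0.85 (adjusted p = 0.00254) and Dusp5 at 0.57 (adjusted p = 0.032).

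Among 16 adaptors and kinases of the RAS and ERK cascade, 4 rose and 0 fell in each genotype. In WT these included the ERK kinase Map2k1 (log2 fold change 0.55, adjusted p = 0.00964), Nras (0.45, adjusted p = 0.0112) and the adaptor Shc1 (0.39, adjusted p = 0.0058). In mice labelled Lcn2-/- they were the adaptors Gab2 (0.96, adjusted p = 0.00975), Grb2 (0.55, adjusted p = 0.022) and Shc1 (0.28, adjusted p = 0.0321) and the ERK gene Mapk3 (0.41, adjusted p = 0.0129).

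Among 13 genes that ERK signalling is known to induce, 4 rose and 1 fell in WT, and 5 rose and 2 fell in mice labelled Lcn2-/-. Fosl1, an AP-1 subunit, had the largest rise in both, from 0.320 ± 0.0915 to 8.14 ± 2.68 CPM in WT (SD, n = 3; log2 fold change 4.66, adjusted p = 1.63e-05) and from 0.763 ± 0.316 to 4.85 ± 0.92 CPM in mice labelled Lcn2-/- (2.65, adjusted p = 0.000625). In WT it was followed by the immediate early gene Ier3 (1.82, adjusted p = 2.18e-06) and Phlda1 (1.78, adjusted p = 0.00062), while the zinc finger gene Egr2 fell (-1.06, adjusted p = 0.0151). In mice labelled Lcn2-/- it was followed in size by Junb, another AP-1 subunit (1.54, adjusted p = 0.00251), and by falls of Egr2 (-1.54, adjusted p = 0.00315) and Egr3 (-1.39, adjusted p = 0.00668).

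Between the IMQ groups 1 of the 57 pathway genes was called higher in mice labelled Lcn2-/- and 4 lower, beside the 2.19% and 2.6% of all genes. Adam12, a protease known to release HB-EGF, was higher (log2 fold change 0.90, adjusted p = 0.0257). The inhibitor Socs5 (-0.64, adjusted p = 0.0319), Rhbdf1 (-0.52, adjusted p = 0.0384) and Myc (-0.51, adjusted p = 0.039) were among the lower ones. DESeq2 called 2 higher and 13 lower, beside 6.45% and 6.79% of all genes. The 4 calls on lower genes were lost without WT IMQ mouse 1 or 3 or without any IMQ mouse labelled Lcn2-/-. Without WT IMQ mouse 2, 11 genes were called lower, beside 7.47% of all genes. Fits without a control mouse were not kept for this comparison. Between the control groups no pathway gene was called by either tool. At a p under 0.05 before adjustment by edgeR, 2 were higher and 2 lower, beside 2.65% and 3.95% of all tested genes. In the comparison of responses Ier3 was the only one of the 57 called by edgeR, with a smaller rise in mice labelled Lcn2-/- (-0.81 ± 0.17, SE, adjusted p = 0.0386).

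The genes most like 3 of the members over the 12 libraries were found by the root mean square difference of log2 CPM, each gene centred on its own mean, among 15979 genes with a mean of at least 1 CPM. Nrg1, the largest rise, was nearest to another ligand, Epgn (0.595), then to Cnfn, a component of the cornified envelope (0.644), and Sh2d5 (0.651). Btc, the only member called lower after IMQ, was nearest to Scin, which encodes an actin-severing protein (0.197), Skint4, a gene expressed in epidermis (0.198), and Faah (0.263). Egfr was nearest to Usp24 (0.0818), the feedback inhibitor Spred1 (0.0892) and Etv5, a transcription factor gene of the ERK list (0.0916). The points share library and group, so these values are descriptions only.

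Some of the counts could hold reads of overlapping genes, since the strand setting is not known. Erbb2 overlaps the protein-coding gene Mien1 on the other strand, which had 3082 counts over all libraries, and Egfr overlaps the antisense gene Egfros with 104 counts. The genes that overlap Tgfa, Nrg1 and Erbb3 had 71 counts or fewer in all. Outside chromosome 5, the annotation places Tgfa on chromosome 6 (86195223 to 86275719), Nrg1 on chromosome 8 (31814551 to 32884029), Erbb3 on chromosome 10 (128567523 to 128589652) and Hbegf on chromosome 18 (36504927 to 36515805). Erbb2 (98412470 to 98437716) and Egfr (16752203 to 16918158) are both on chromosome 11, far apart.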

How the data were processed

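The authors deposited 1 table of raw read counts, whole numbers for 56923 Ensembl genes in 12 libraries of back skin made with a ribosome-depleted TruSeq protocol. The submitters' processing notes name HISAT and mm8; the counter, its strand setting and the annotation are not given in the sources used here. Symbols and positions came from GENCODE M21 (GRCm38), which holds 52073 of the identifiers (91.5%), and promoters from RefSeq. Totals ran from 16448226 to 28592110 counts.

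Counts were normalized by TMM and fitted with edgeR 4.0.16 (limma 3.58.1, R 4.3.3) as 4 group means, with robust quasi-likelihood dispersions, over all 12 mice. Low counts were removed by filterByExpr, with a minimum count of 10 and a minimum total of 15, which left 18529 genes. A Benjamini-Hochberg adjusted p under 0.05 was a call. The SE is the log2 fold change over the square root of F. Alternatives were DESeq2 1.42.0, which the authors used, RLE size factors, no filter, the compared groups alone, a replicate block, a fold change above 2, and leaving out each mouse. The scripts were tested on simulated data with 200 of 18529 genes changed 4-fold in WT IMQ. Of these, edgeR recovered 164 with 7 false calls among 171, and DESeq2 recovered 183 with 39 false calls among 222.

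All 10 members are named throughout. Of each other pathway list, counts are given with up to 4 called genes, largest change first. A single pathway gene is counted but its values are not reported here. The members, the lists and the tests were chosen with earlier results of these data known. Nothing in the labels says that mice of the same number belong together. No 2 libraries of a group agreed within sampling noise. The study describes the mice as separate animals. The labels give no batch.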

Additional observations from a re-analysis of the deposited data

Results flagged for a closer look

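Among the 10 members and the 57 other pathway genes tested, the response to IMQ differed between the genotypes as labelled in 3 genes. This is by the interaction term of the edgeR fit, which called 0.783% of all tested genes lower and 1.37% higher. The difference, mice labelled Lcn2-/- minus WT on the log2 scale, was -2.27 in Areg (adjusted p = 0.017) and -2.36 in Epgn (adjusted p = 0.0195). It was -0.81 in Ier3 (adjusted p = 0.0386), which was called in 4 of the 12 fits that left out 1 mouse (from -0.92 to -0.75, adjusted p from 0.0254 to 0.129) and was not called with the replicate block. In Areg and Epgn the adjusted p ranged from 0.00843 to 0.0668 and from 0.00732 to 0.0752 over the 12 fits that left out 1 mouse, with p under 0.05 before adjustment in 12 of 12 fits for both. Areg was called in 9 and Epgn in 6 of these 12 fits. With the replicate block Epgn was called and Areg was not. The 12 keratinocyte markers also had differences below 0, with a median of -0.72 and 0 called, and their part in these results was not tested.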

How the results depend on the processing

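The calls on the members after IMQ in WT and in mice labelled Lcn2-/- held under TMM or RLE scaling, without the filter, with DESeq2, on the compared groups alone and with the replicate block. With a fold change above 2 required, 5 to 6 members were called higher and 1 lower. Pathway genes fell to 6 higher and 2 lower in WT and to 5 higher in mice labelled Lcn2-/- with that requirement.

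Between the IMQ groups, pathway genes called higher were 2 without the filter, 2 with DESeq2, 3 on the compared groups alone, 0 with the replicate block and 0 with a fold change above 2. Those called lower were 1, 13, 10, 0 and 0 in the same order. Of all genes, 1.15%, 6.45%, 6.34% and 0.416% were called higher in the settings before the fold change requirement. The shares called lower were 1.17%, 6.79%, 4.81% and 0.318%. For the difference of responses, members called lower were 4 with RLE scaling and 7 with DESeq2, and pathway genes were 1 higher with DESeq2 and 2, 8 and 0 lower without the filter, with DESeq2 and with a fold change above 2. Beside them, 0.831% of all genes were called lower with RLE scaling, 0.583% without the filter and 4.71% with DESeq2, which called 5.57% higher.

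The deviations of same-numbered mice from their group means had a mean correlation of -0.051 over 18 pairs, from -0.55 to 0.20, beside 0.027 over 36 pairs of other numbers. The pairs share mice, so these values cannot tell whether mice of the same number had more than the number in common. With the replicate block, members called lower between the IMQ groups went from 4 to 2 and in the difference of responses from 2 to 1, and 0 pathway genes were called lower in either.

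Over the fits without 1 mouse, members called lower numbered 0 to 1 in WT after IMQ, 1 to 2 in mice labelled Lcn2-/-, 0 to 5 between the IMQ groups and 0 to 5 in the difference of responses. Pathway genes called were 11 to 17 higher and 3 to 6 lower in WT, 8 to 12 higher and 5 to 8 lower in mice labelled Lcn2-/-, 0 to 3 higher and 0 to 11 lower between the IMQ groups, and 0 to 2 higher and 0 to 8 lower in the difference. Values near 0 changed sign in some of these fits: Erbb2 in WT after IMQ (-0.26 to 0.18), Btc between the IMQ groups (-0.59 to 0.10), Egfr in the difference (-0.15 to 0.057), and Btc (-0.036 to 0.48), Egfr (-0.21 to 0.019) and Erbb2 (-0.0089 to 0.41) between the controls. The cause of each change was not tested. In the comparisons of 2 groups the log2 fold changes had an SE of 0.13 in Egfr, 0.24 in Erbb3 and 0.26 in Erbb2, and the 5 counts of Nrg1 in 1 control library limit its fold change.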
